A study of Homo sapiens with 6 samples.

Results

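The 47 genes described here act in homologous recombination and in the Fanconi anemia pathway. They were chosen by name, with earlier results of these data known. All 47 had a row in the count table of 61541 genes, and all 47 passed the filter on low counts that left 17678 genes for testing. The cells were H9, an established CTCL (cutaneous T-cell lymphoma) line whose labels give a WT genotype and describe T cell lymphoma cells. Bulk RNA-seq covered 3 DMSO (vehicle) libraries and 3 libraries from cells exposed to AZD4573, a selective inhibitor of CDK9, at 50 nM for 4 h. That time is the one in the labels, whereas the study's discussion names a longer exposure. Every library came from the same single line, and no source used here says that replicates were separate cultures, so that p-values measure only the spread between these samples. CDK9 is the kinase of P-TEFb, which releases RNA polymerase II (RNAP2) from its pause near the start of genes, and the comparison asked which repair transcripts changed when that kinase was antagonized.

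Homologous recombination repairs a broken chromosome by copying the intact sister. The MRE11-RAD50-NBN complex senses the break, nucleases cut back its ends to leave single strands, and BRCA1, PALB2 and BRCA2 load a recombinase onto them with the help of its paralogs. Helicases and nucleases then take apart the joined molecules. The Fanconi anemia pathway, which acts on crosslinks between DNA strands, uses a core complex with a ubiquitin ligase to modify the FANCD2-FANCI pair and hands the lesion to the same recombination factors. Inherited loss of many of these genes causes Fanconi anemia or a predisposition to cancer.

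Total counts ranged from 70367303 to 76571157 in the DMSO libraries and from 52101868 to 63795185 in the AZD4573 libraries, and POLN aside, no member had fewer than 56 counts in any library. The 7 T-cell markers checked were at 1 CPM or more in every library except for CD2, which stayed under 1 CPM, and their summed level was 1055 to 1075 CPM with DMSO and 1625 to 1723 CPM with AZD4573. The 4 myeloid markers stayed under 1 CPM. Of the 3 B-cell markers CD79A was above that level (summed level 55.2 to 61.1 CPM with DMSO and 88.8 to 98.8 CPM with AZD4573, with MS4A1 and PAX5 under 1 CPM), of the 3 fibroblast markers COL1A1 (5.01 to 7.45 and 3.62 to 4.36 CPM, with COL1A2 and PDGFRB under 1 CPM), and of the 4 epithelial markers EPCAM and CDH1 (153.6 to 172.8 and 136.5 to 141.6 CPM, with KRT8 and KRT18 under 1 CPM). Their part in the results was not tested. The share of counts on mRNAs encoded in the mitochondria was 3.04% to 3.22% with DMSO and 4.67% to 4.98% with AZD4573. All levels below are CPM, a gene's counts scaled to the library total, after TMM normalization, which sets the bulk of transcripts equal between libraries, so that every rise or fall is relative to that bulk, and fewer cells and less RNA per cell cannot be told apart. When the libraries were scaled to the mitochondrial mRNAs instead, the all-gene median log2 fold change went from 0.03 to -0.71, and each member described as higher carries its value under that scaling.

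Upon AZD4573 treatment, these repair transcripts mostly fell. With edgeR's quasi-likelihood test and Benjamini-Hochberg adjustment over all 17678 genes, 30 of the 47 members were lower at an adjusted p under 0.05 (63.8%, beside 37.4% of all genes tested), 10 were higher (21.3%, beside 37.3%) and 7 did not pass. Scaled to the mitochondrial mRNAs, 45 were lower (95.7%, beside 67.2% of all genes under that scaling) and 1, ATM, was higher (2.13%, beside 12.1%). With a fold change of at least 1.5 added, 18 members were called lower (38.3%, beside 23.7% of all genes), and 1, ATM, was called higher (2.13%, beside 22.7%). All AZD4573 libraries lay below all DMSO libraries for 30 members (63.8%, beside 38.7% of all genes) and above them for 11 (23.4%, beside 39% of all genes), while the groups overlapped for 6.

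The falls were of moderate size. The median log2 fold change of the members was -0.32 beside 0.03 over all genes, and 33 of 47 members lay below the all-gene median. Of the members that fell, 12 did so by less than 1.5-fold and 7 by at least 2-fold. Of the 10 that were higher, 9 were higher by less than 1.5-fold and 0 by 2-fold or more. The share of all genes at 2-fold was not counted, so that the 2-fold counts only describe the members. Summed over the 47 members, the level was 2517, 2583 and 2536 CPM in the DMSO libraries and 2199, 2169 and 2193 CPM in the AZD4573 libraries, so that the groups did not overlap (2545 ± 34.1 and 2187 ± 15.9, SD, n = 3 each).

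**Figure D1:**
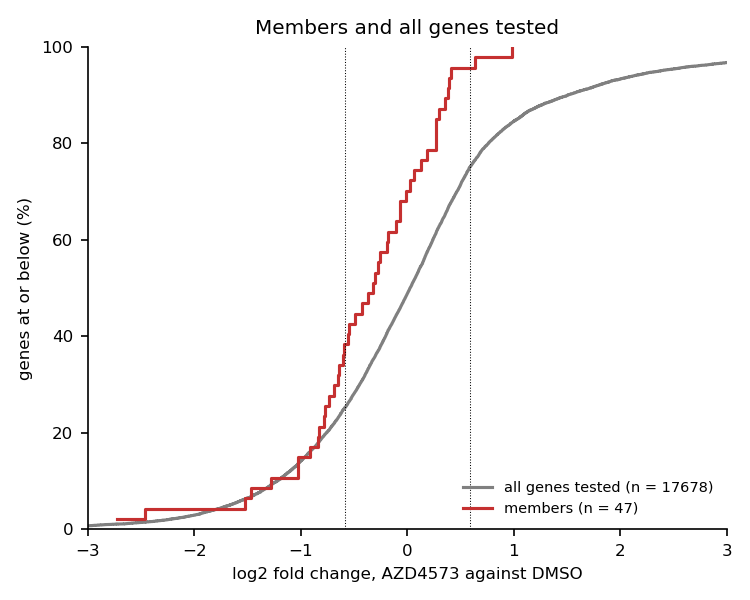
Cumulative share of genes (percent, vertical axis) at or below each log2 fold change of AZD4573 against DMSO (horizontal axis, shown from -3 to 3), for the 47 members (red) and all 17678 genes tested (grey), with dotted lines at a fold change of 1.5 in either direction. The members' curve runs left of the grey curve at its middle (median -0.32 against 0.03) and ends at 0.98, the value of ATM, whereas the grey curve goes on to higher values. All changes are relative to TMM scaling, and with mitochondrial scaling the medians were -1.06 and -0.71.

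The members were spread widely around that median, also within a role. The role groups had median log2 fold changes from -0.61 for the Fanconi core complex with its E2 enzyme, -0.55 for the recombinase paralogs and strand exchange factors, -0.49 for the junction helicases and nucleases, -0.37 for break sensing and resection, -0.28 for the checkpoint kinases and -0.27 for the BRCA1 and BRCA2 complexes, to 0.27 for the FANCD2-FANCI pair and 0.39 for the group of HELQ, POLQ and POLN. With mitochondrial scaling the last pair of medians turned to -0.47 and -0.35. The median of the last group is the value of POLQ alone, as HELQ fell and POLN did not pass.

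**Figure D2:**
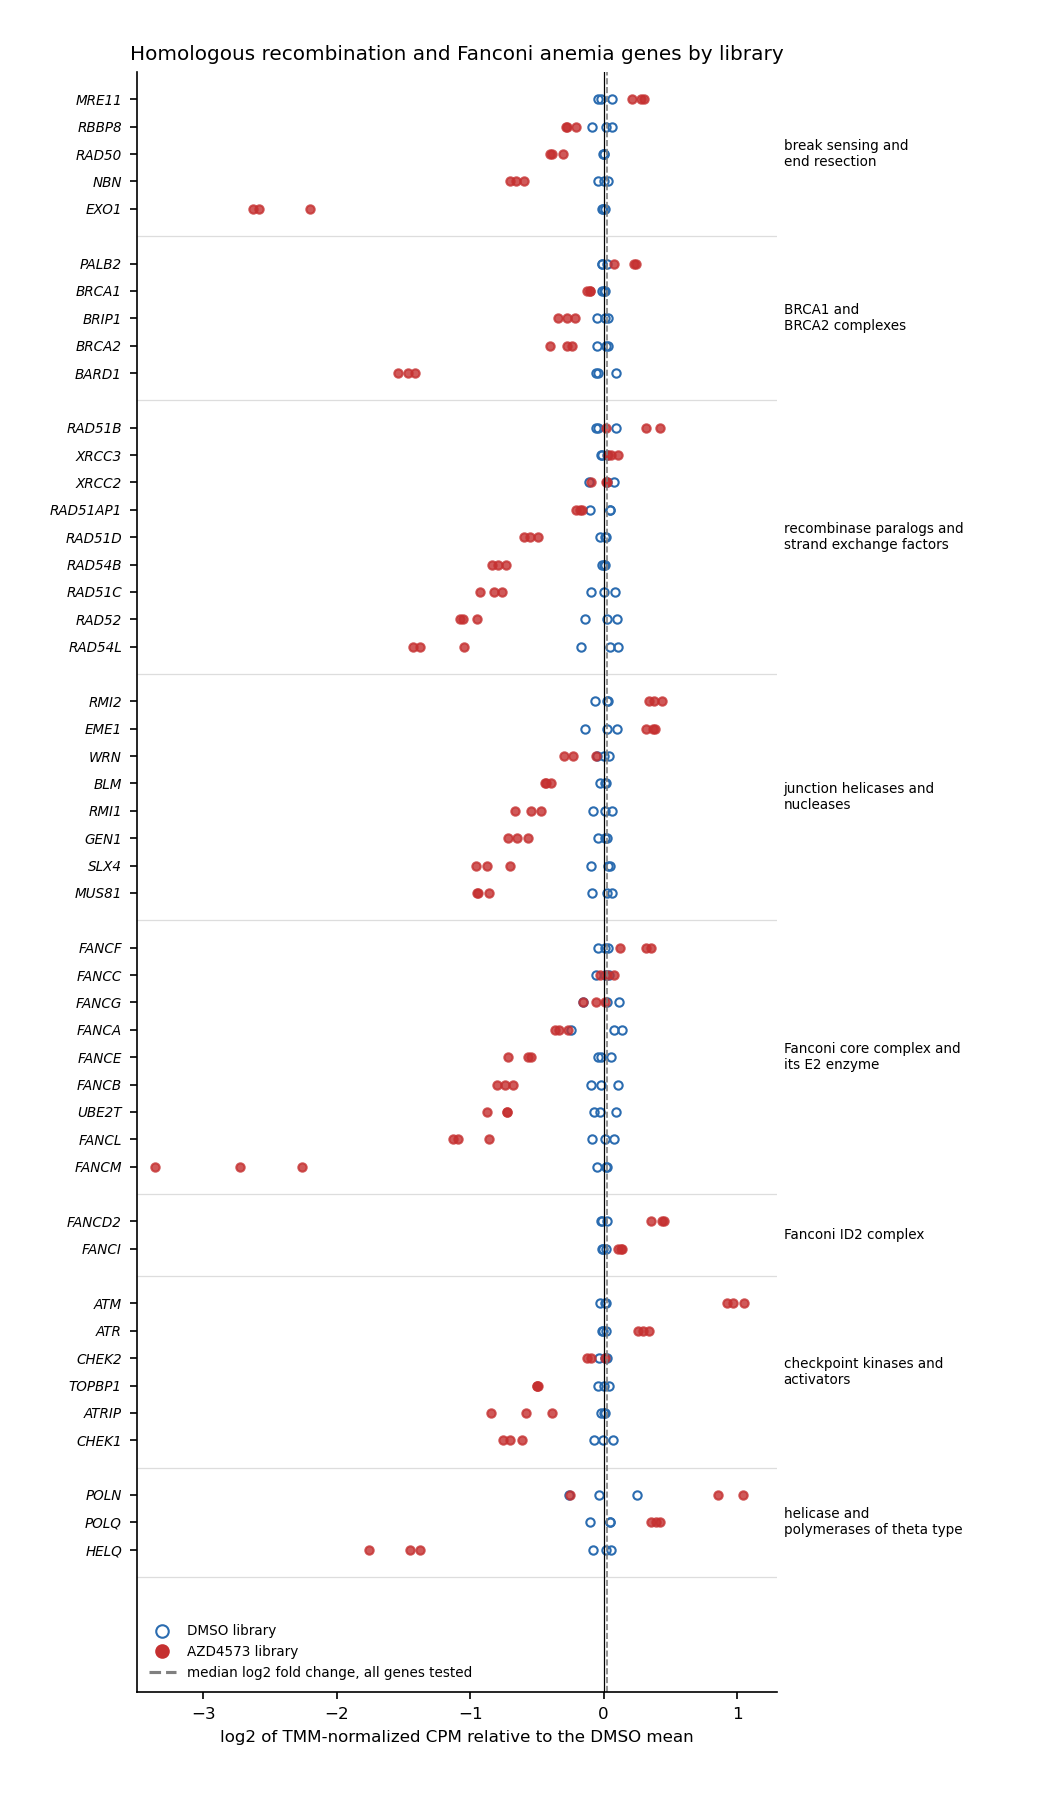
Level of each of the 47 members in each library, as log2 of TMM-normalized CPM relative to the member's DMSO mean (horizontal axis), with members grouped by role (vertical axis). Open blue circles are the 3 DMSO libraries, filled red circles the 3 AZD4573 libraries, and the dashed line marks the median log2 fold change of all genes tested (0.03). FANCM and EXO1 lie farthest to the left and ATM is the only member called higher at a fold of 1.5 or more; with mitochondrial scaling all 10 members at the right that passed the test except ATM turned negative.

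The 3 members that fell the most belonged to different roles. FANCM, the helicase-like translocase that anchors the Fanconi core complex to DNA, is on chromosome 14 (GRCh38, bases 45135930 to 45200890, plus strand). EXO1, a nuclease that cuts back 5′ ends over long stretches, is on chromosome 1 (bases 241847967 to 241895148, plus strand). HELQ, a helicase linked to recombination and to the repair of crosslinks, is on chromosome 4 (bases 83407343 to 83455855, minus strand). At the other end stood ATM, the kinase that signals from double-strand breaks, on chromosome 11 (bases 108223044 to 108369102, plus strand). Their promoter windows from RefSeq (GRCh38.p14, 250 bases before to 50 bases after the annotated start, written 5′ to 3′ on the gene's strand) are shown so that the 3 largest falls can be read beside the one called rise. They cover chr14:45135680-45135979 for FANCM, chr1:241847954-241848253 for EXO1, chr4:83455774-83456073 (minus strand) for HELQ and chr11:108222817-108223116 for ATM. The start used is the one in RefSeq, which for EXO1, HELQ and ATM is not the gene start given above. Most of the EXO1 window therefore lies inside the gene span given above. Capitals mark CCAAT, the NF-Y box, and TTTGAA, the core of the cell cycle genes homology region (CHR), on either strand.
FANCM: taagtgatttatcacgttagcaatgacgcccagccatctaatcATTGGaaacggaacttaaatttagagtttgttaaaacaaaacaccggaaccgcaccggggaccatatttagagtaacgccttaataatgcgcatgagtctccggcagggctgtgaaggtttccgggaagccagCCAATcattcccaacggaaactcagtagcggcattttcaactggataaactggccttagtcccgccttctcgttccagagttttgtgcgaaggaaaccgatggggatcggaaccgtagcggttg
EXO1: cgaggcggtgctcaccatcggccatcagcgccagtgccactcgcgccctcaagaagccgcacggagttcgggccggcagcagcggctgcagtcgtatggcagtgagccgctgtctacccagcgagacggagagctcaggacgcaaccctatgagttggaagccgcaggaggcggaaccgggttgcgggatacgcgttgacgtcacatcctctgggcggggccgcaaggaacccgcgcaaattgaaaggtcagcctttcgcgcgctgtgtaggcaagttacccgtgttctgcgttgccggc
HELQ: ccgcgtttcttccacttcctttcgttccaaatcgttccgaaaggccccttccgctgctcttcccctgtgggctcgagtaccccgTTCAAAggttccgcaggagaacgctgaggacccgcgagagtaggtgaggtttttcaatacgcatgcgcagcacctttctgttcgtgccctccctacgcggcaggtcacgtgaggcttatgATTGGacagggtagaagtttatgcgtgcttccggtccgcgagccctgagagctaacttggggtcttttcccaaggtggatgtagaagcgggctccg
ATM: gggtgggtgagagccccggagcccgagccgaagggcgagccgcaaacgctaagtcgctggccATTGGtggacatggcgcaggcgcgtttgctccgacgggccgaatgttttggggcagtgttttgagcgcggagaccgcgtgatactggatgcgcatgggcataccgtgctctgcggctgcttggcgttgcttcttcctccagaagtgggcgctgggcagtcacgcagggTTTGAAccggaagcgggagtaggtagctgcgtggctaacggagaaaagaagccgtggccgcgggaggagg

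The FANCM window held CCAAT at 74 and 207 bases before the start, the HELQ window held CCAAT at 46 and TTTGAA at 166 bases before it, and the ATM window held CCAAT at 188 and TTTGAA at 20 bases before it. These distances are counted from the RefSeq start. The EXO1 window, most of which lies inside the gene span given above, held neither motif. The GC content was 48% for FANCM, 57.3% for HELQ, 64.3% for ATM and 65% for EXO1. Windows were found for 42 members, and were missing for NBN, RAD54B, WRN, RMI2 and FANCI. CCAAT was in 19 of the 42 (45.2%, beside 34.6% of 35116 windows of the same length), TTTGAA in 6 (14.3%, beside 15.2%) and an E2F element written as TTTCCCGC or TTTGGCGC in 3 (7.14%, beside 2.27%), namely FANCC, FANCD2 and XRCC2. No searched motif contains another. Of the members with a window, 27 passed the test as lower and 8 as higher; CCAAT was in 13 of the former and 4 of the latter, TTTGAA in 3 and 2, and the E2F element in 0 and 1. With mitochondrial scaling ATM alone stayed higher among those 8.

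Break sensing and resection held 4 members that fell and 1 that rose. EXO1 was at 36.6, 36.5 and 37.0 CPM with DMSO and at 7.998, 6.14 and 5.95 CPM with AZD4573. The AZD4573 libraries kept 18.2% of the DMSO level (log2 fold change -2.46, SE 0.092, adjusted p 9.39e-11), and the replicates lay close together beside that gap. NBN, which ties the complex to ATM, fell from 113.2, 115.5 and 109.4 CPM to 74.5, 69.5 and 71.5 CPM (log2 fold change -0.65). RAD50, the ATPase of the complex, fell by less (97.3, 98.0 and 98.0 CPM against 73.9, 74.7 and 79.1 CPM, log2 fold change -0.37). MRE11, its nuclease, was higher, at 40.4, 42.8 and 39.9 CPM with DMSO and 47.7, 49.8 and 50.8 CPM with AZD4573 (log2 fold change 0.27, SE 0.0516, adjusted p 0.000352), and -0.47 with mitochondrial scaling. RBBP8 (CtIP), which starts resection together with that nuclease, fell by 0.25 on the log2 scale. RAD50 shares 76.9% of its exon bases with an overlapping gene on the same strand, ENSG00000283782, which was at 4.03 CPM with DMSO and 7.80 CPM with AZD4573, far below RAD50 itself.

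The subunits of this complex thus did not move in parallel, and their ratios show it without any scaling, since both counts come from the same library. For each MRE11 count there were more NBN counts with DMSO, where the MRE11 to NBN ratio was 0.357, 0.370 and 0.365, than with AZD4573, where it was 0.640, 0.717 and 0.710, a 1.89-fold change. The MRE11 to RAD50 ratio went from 0.420 ± 0.0150 to 0.651 ± 0.0142 (SD, n = 3 each, 1.55-fold). In neither ratio did the groups overlap. The pairs of complex partners given here and below were chosen after their values were seen, so that no test was made on them. How often other gene pairs show no overlap was not counted.

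Among the BRCA1 and BRCA2 complexes, BARD1 stood apart. BARD1, the partner that forms the BRCA1 ubiquitin ligase and keeps BRCA1 stable, fell from 12.9, 14.2 and 12.95 CPM to 4.60, 5.00 and 4.83 CPM, which left 36.1% of the DMSO level (log2 fold change -1.47, SE 0.086, adjusted p 3.67e-09). BRCA1 itself barely moved, at 150.1, 149.0 and 147.5 CPM with DMSO and 138.6, 138.6 and 136.5 CPM with AZD4573. That decrease was small beside BARD1 but larger than the spread between replicates (log2 fold change -0.11, SE 0.0386, adjusted p 0.0193), and with at least 10 counts required in every library it no longer passed (-0.07, adjusted p 0.0955). Each BARD1 count was thus matched by 11.7, 10.47 and 11.4 BRCA1 counts in the DMSO libraries and by 30.2, 27.7 and 28.3 in the AZD4573 libraries, a 2.57-fold change of the ratio.

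BRCA2, which carries the recombinase to single strands, fell slightly, from 32.7, 33.2 and 31.3 CPM to 27.6, 26.8 and 24.6 CPM (log2 fold change -0.30, SE 0.0598, adjusted p 0.000457). PALB2, the bridge between BRCA1 and BRCA2, was higher instead, at 38.8, 39.8 and 38.8 CPM with DMSO and 41.3, 45.8 and 46.4 CPM with AZD4573 (log2 fold change 0.19, SE 0.0559, adjusted p 0.00831), but -0.55 with mitochondrial scaling. Its call was lost without AZD4573 replicate 3 (0.15, adjusted p 0.0503) and with library sizes alone (0.08, adjusted p 0.188). The BRCA2 to PALB2 count ratio fell from 0.828 ± 0.0199 to 0.594 ± 0.0695 (SD, n = 3 each), with no overlap. BRIP1, the helicase also known as FANCJ that binds BRCA1, fell by 0.27 on the log2 scale.

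Of the 9 recombinase paralogs and strand exchange factors, 6 fell, 0 rose and 3 did not pass. RAD54L, a translocase that drives strand exchange, fell the furthest of them, from 34.7, 40.2 and 42.1 CPM to 18.9, 15.0 and 14.5 CPM (log2 fold change -1.28, SE 0.0974, adjusted p 4.95e-08). The first library of each group was the one nearest to the other group, and the groups stayed well apart. RAD54L shares 19.9% of its exon bases with LRRC41 on the opposite strand, which was more abundant. LRRC41 was at 74.9 CPM with DMSO and 66.7 CPM with AZD4573 (log2 fold change -0.17). RAD52, an annealing factor, fell by 1.02 on the log2 scale to 49.2% of its DMSO level of 12.4 CPM, and RAD54B fell by 0.78. RAD54B shares 66.0% of its exon bases with FSBP on the same strand, which fell as well (9.33 CPM against 3.60 CPM, log2 fold change -1.37), so that part of either value may belong to the other gene. RAD51AP1, which helps strand pairing, fell the least of those that passed, from 47.1, 47.1 and 42.5 CPM to 39.4, 40.3 and 40.7 CPM (log2 fold change -0.18, SE 0.055, adjusted p 0.00837).

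The paralogs form a pair of complexes, and within both the partners differed. RAD51C, present in both complexes, fell from 65.9, 62.1 and 58.2 CPM to 36.6, 32.6 and 35.1 CPM (log2 fold change -0.83, SE 0.0609, adjusted p 3.19e-08). RAD51D, its neighbour in the complex with RAD51B and XRCC2, fell by 0.55. XRCC3, which pairs with RAD51C alone, had 48.8 ± 0.883 CPM with DMSO and 51.1 ± 1.37 CPM with AZD4573 (SD, n = 3 each) and did not pass (log2 fold change 0.07, adjusted p 0.223), with -0.04 under library sizes alone and -0.67 under mitochondrial scaling. XRCC2 stood at 47.8 ± 3.22 CPM and 47.2 ± 2.15 CPM (log2 fold change -0.02, 95% interval -0.14 to 0.11). Under mitochondrial scaling XRCC2 passed as lower (-0.76, adjusted p 2.42e-08). RAD51B stood at 4.99 ± 0.280 CPM and 5.99 ± 0.850 CPM (log2 fold change 0.26, adjusted p 0.0557), and AZD4573 replicate 1 was the low library of its group, without which the value was 0.37 (adjusted p 0.00744). Without any other single library RAD51B ranged from 0.17 (adjusted p 0.239, without AZD4573 replicate 2) to 0.30 and did not pass, with 10 counts required in every library it passed (0.30, adjusted p 0.0331), and mitochondrial scaling gave -0.48. The XRCC3 to RAD51C count ratio was 0.733, 0.803 and 0.832 with DMSO and 1.44, 1.53 and 1.45 with AZD4573, and the groups did not overlap. XRCC3 shares 76.7% of its exon bases with KLC1 on the opposite strand, which fell by 0.55 on the log2 scale from 121.6 CPM, and the counting ignored strand, so that the XRCC3 values are uncertain.

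Junction helicases and nucleases, which resolve joined molecules, divided within their own complexes. MUS81, the nuclease subunit that cuts branched DNA, fell from 61.2, 68.0 and 66.2 CPM to 35.9, 33.8 and 34.0 CPM (log2 fold change -0.91, SE 0.055, adjusted p 4.81e-09). Its partner EME1 was higher, with 15.2, 17.0 and 18.0 CPM against 21.6, 21.8 and 20.8 CPM (log2 fold change 0.36, SE 0.0707, adjusted p 0.000447), and -0.38 with mitochondrial scaling. The MUS81 to EME1 count ratio was 4.02, 3.99 and 3.69 with DMSO and 1.66, 1.55 and 1.63 with AZD4573, a 2.42-fold drop that no scaling affects. MUS81 shares 14.1% of its exon bases with CFL1 and EME1 16.4% with LRRC59, both on the opposite strand and both more abundant than the member; CFL1 rose by 0.33 on the log2 scale (with TMM scaling) and LRRC59 fell by 0.28.

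The same was seen for the BLM dissolution complex. RMI2, its smallest subunit, was higher, at 8.87, 8.92 and 8.35 CPM with DMSO and 11.3, 11.8 and 11.0 CPM with AZD4573 (log2 fold change 0.39, SE 0.0769, adjusted p 0.000461), and -0.35 with mitochondrial scaling. RMI1, its binding partner, fell by 0.56, and the helicase BLM fell by 0.42. The RMI1 to RMI2 count ratio went from 2.19 ± 0.137 to 1.14 ± 0.0384 (SD, n = 3 each, a 1.93-fold drop). SLX4, the scaffold that gathers nucleases, fell by 0.84, and GEN1, a resolvase, fell by 0.64. WRN, the helicase lost in Werner syndrome, had 69.6, 72.0 and 74.03 CPM with DMSO and 69.0, 58.5 and 61.2 CPM with AZD4573, so that AZD4573 replicate 1 nearly touched the DMSO group. It passed the test (log2 fold change -0.19, adjusted p 0.0103), but not without AZD4573 replicate 2 (-0.15, adjusted p 0.0592).

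**Figure D3:**
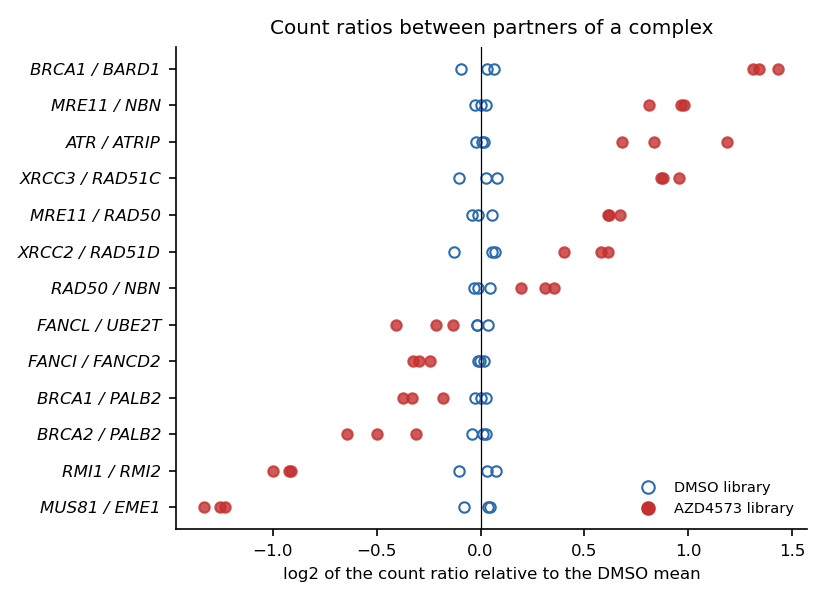
Ratio of raw counts between named pairs of complex partners (vertical axis), as log2 of the ratio in each library relative to the mean of the 3 DMSO libraries (horizontal axis), with open blue circles for DMSO and filled red circles for AZD4573. The groups do not overlap in any of the 13 pairs, which were chosen after their values were seen. No such share was counted over other gene pairs. Among single genes tested, all AZD4573 libraries lay below all DMSO libraries for 38.7% and above them for 39%. BRCA1 to BARD1 moved furthest up (2.57-fold) and MUS81 to EME1 furthest down (2.42-fold).

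The Fanconi core complex and its ubiquitin-conjugating enzyme held 6 members that fell, 1 that rose and 2 that did not pass. FANCM had 9.09, 9.54 and 9.60 CPM with DMSO (713, 699 and 707 counts) and 1.97, 1.42 and 0.918 CPM with AZD4573 (100, 81 and 56 counts). It kept 15.1% of the DMSO level, the lowest share of the 47 members (log2 fold change -2.73, SE 0.181, adjusted p 1.2e-08), and its AZD4573 libraries differed among themselves by more than those of most members. FANCL, the ligase that marks FANCD2 and FANCI, fell by 1.02 to 49.2%, and UBE2T, the E2 enzyme that works with it, fell by 0.77 to 58.5%. FANCB, which dimerizes the ligase module, fell by 0.74 and FANCE, which contacts FANCD2, fell by 0.61. FANCA, the subunit most often mutated in Fanconi anemia, had 31.8, 39.8 and 41.6 CPM with DMSO and 31.3, 30.0 and 29.4 CPM with AZD4573 (log2 fold change -0.32, SE 0.0848, adjusted p 0.00376). DMSO replicate 1 lay next to the AZD4573 libraries, and FANCA shares 19.6% of its exon bases with ZNF276 on the opposite strand, which was higher by 0.44 with TMM scaling.

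FANCF, the adaptor of the core complex, was the member that was higher, at 22.8, 23.6 and 24.0 CPM with DMSO and 25.6, 30.0 and 29.2 CPM with AZD4573 (log2 fold change 0.27, SE 0.0665, adjusted p 0.00234), and -0.47 with mitochondrial scaling. It has the shortest span of the 47 members, 3.29 kb. FANCC had 25.4 ± 0.902 CPM with DMSO and 25.9 ± 0.964 CPM with AZD4573 (log2 fold change 0.03, 95% interval -0.10 to 0.15), with a sign that turned with DMSO replicate 3 or AZD4573 replicate 1 left out (-0.01 and -0.00296), and under library sizes alone (-0.08), without the filter (-0.02) and under mitochondrial scaling (-0.71). FANCG, which together with FANCA helps hold the complex, had 25.4 ± 2.33 CPM and 24.2 ± 1.37 CPM (SD, n = 3 each). Its log2 fold change was -0.06 (95% interval -0.22 to 0.10), and under mitochondrial scaling it passed as lower (-0.80, adjusted p 1.42e-07).

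The target of the core complex went the other way. FANCD2 had 105.4, 106.4 and 109.2 CPM with DMSO and 136.6, 146.3 and 144.6 CPM with AZD4573 (log2 fold change 0.41, SE 0.0433, adjusted p 1.19e-06), although with mitochondrial scaling it was at -0.33. FANCI, its partner, had 182.2, 181.9 and 185.3 CPM with DMSO and 197.6, 200.3 and 201.9 CPM with AZD4573 (log2 fold change 0.13, SE 0.038, adjusted p 0.00835), and -0.61 with mitochondrial scaling. FANCI did not pass without DMSO replicate 2 (0.11, adjusted p 0.0649), with library sizes alone (0.02) or without the filter (0.08). The FANCI to FANCD2 count ratio was 1.73, 1.71 and 1.70 with DMSO and 1.45, 1.37 and 1.40 with AZD4573. An annotated pseudogene of FANCD2, FANCD2P2, was at 0.0978 CPM with DMSO and 0.0963 CPM with AZD4573, which is 0.0914% of the FANCD2 level.

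The checkpoint kinases held the only member called higher. ATM had 36.8, 37.8 and 37.6 CPM with DMSO and 70.8, 73.2 and 77.5 CPM with AZD4573. All AZD4573 libraries were nearly double every DMSO library (1.98-fold, log2 fold change 0.98, SE 0.0502, adjusted p 1.09e-09), and with mitochondrial scaling ATM was still higher (0.24, adjusted p 0.0027). ATR, the kinase that responds to single-stranded DNA, was higher by less, with 88.3, 89.1 and 90.2 CPM against 109.7, 106.5 and 113.0 CPM (log2 fold change 0.30, SE 0.0428, adjusted p 2.52e-05), and -0.44 with mitochondrial scaling. ATRIP, the partner that brings ATR to DNA, fell from 17.0, 16.8 and 17.1 CPM to 12.99, 11.4 and 9.44 CPM (log2 fold change -0.59, SE 0.0964, adjusted p 8.11e-05). There were 5.27 ± 0.0694 ATR counts for each ATRIP count with DMSO and 9.93 ± 1.83 with AZD4573 (SD, n = 3 each), with no overlap. ATRIP shares 26.7% of its exon bases with TREX1 on the same strand, which was higher by 0.67 with TMM scaling, from 6.97 CPM to 11.1 CPM.

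CHEK1 and TOPBP1, which work with ATR, both fell. CHEK1, its effector kinase, went from 72.1, 75.7 and 68.6 CPM to 44.4, 42.8 and 47.3 CPM (log2 fold change -0.69, SE 0.0552, adjusted p 8.42e-08). TOPBP1, which activates ATR and was the most abundant member by CPM (246.6 CPM with DMSO), fell by 0.49. CHEK2, the effector of ATM, had 21.5 ± 0.460 CPM with DMSO and 20.5 ± 1.03 CPM with AZD4573 (SD, n = 3 each). It did not pass (log2 fold change -0.07, 95% interval -0.20 to 0.06), though it did with library sizes alone (-0.17, adjusted p 0.0200) and with mitochondrial scaling (-0.81, adjusted p 4.63e-08). The 7 annotated CHEK2 pseudogenes were listed at 0 counts in every library.

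HELQ and the polymerases grouped with it were split. HELQ had 7.16, 6.72 and 7.39 CPM with DMSO and 2.59, 2.74 and 2.10 CPM with AZD4573 (log2 fold change -1.52, SE 0.121, adjusted p 7.76e-08), which left 34.9%. POLQ, the polymerase of theta-mediated end joining that competes with recombination, was higher, at 68.4, 75.9 and 76.2 CPM with DMSO and 98.5, 94.2 and 96.6 CPM with AZD4573 (log2 fold change 0.39, SE 0.0509, adjusted p 1.02e-05), and -0.35 with mitochondrial scaling. POLN, a related polymerase, was near the limit of detection, where the DMSO libraries held 15, 17 and 12 counts and the AZD4573 libraries 18, 23 and 10. Its groups overlapped, and it did not pass (log2 fold change 0.64, 95% interval -0.30 to 1.58, and -0.10 with mitochondrial scaling), so that a change was not detectable at this depth. POLN also shares 49.4% of its exon bases with a same-strand gene.

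Per kb of the canonical transcript, which allows levels to be set beside each other, DMSO means ran from 0.0601 CPM per kb for POLN and 1.32 CPM per kb for FANCM to 44.7 CPM per kb for RBBP8 and 65.4 CPM per kb for UBE2T. The 4 lowest were POLN, which did not pass, and FANCM, HELQ and BARD1, which were called lower. Of all 47 members 18 were called lower (38.3%, beside 23.7% of all genes). The share among all genes of such low levels was not counted. Spearman's rho between the DMSO level in CPM and the log2 fold change was 0.17 over the 47 members and -0.20 over 13423 protein-coding genes tested, a description over genes, which are not independent and share the same 6 libraries.

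CDK9 antagonism acts on elongation, and gene span was therefore set beside the changes. The 15 longest members (90.3 to 910.4 kb) had a median log2 fold change of -0.11, with 2 called lower, the 16 of middle span (43.0 to 90.3 kb) had -0.67, with 9 called lower, and the 16 shortest (3.29 to 38.2 kb) had -0.55, with 7 called lower. Over all protein-coding genes within the same limits the medians were -0.02, -0.21 and -0.04, and 23.1%, 30.4% and 27.4% were called lower. The longest members thus lay 0.44 above the shortest on the log2 scale. In the single AZD4573 libraries the medians of the longest members were -0.06, -0.10 and -0.23 and those of the shortest -0.44, -0.52 and -0.61. Spearman's rho with the span was 0.24 over the members and -0.03 over all protein-coding genes. With transcript length it was 0.10 beside -0.09, and with the number of exons 0.17 beside 0.08. ATM (146.1 kb, 63 exons) and FANCM (65.0 kb, 23 exons), the highest and the lowest of those that passed, are both genes of many exons.

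**Figure D4:**
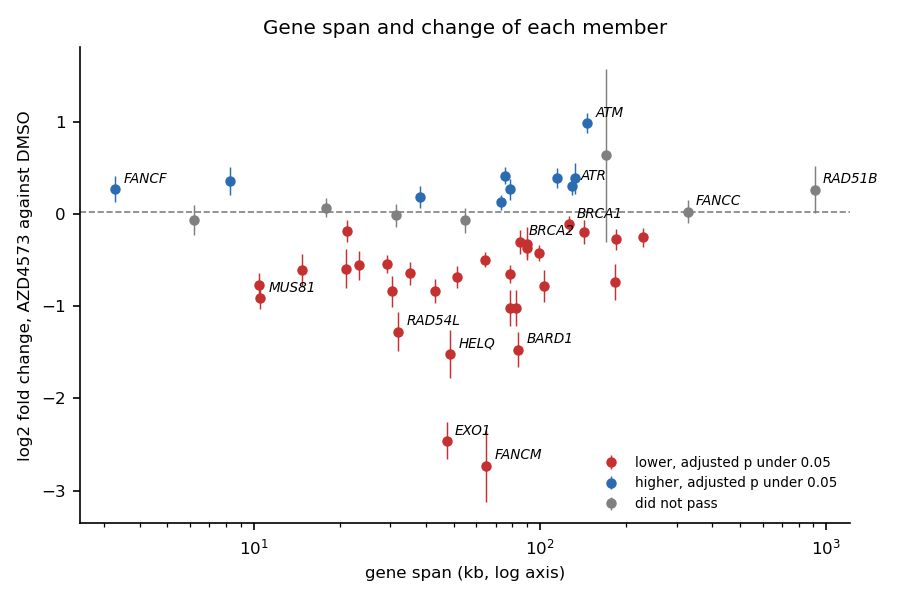
Log2 fold change of AZD4573 against DMSO with its 95% interval (vertical axis) against the annotated gene span in kb (horizontal log axis) for the 47 members, with members lower (red) or higher (blue) at an adjusted p under 0.05 and those that did not pass (grey); the dashed line is the median of all genes tested (0.03). The largest falls (FANCM, EXO1, HELQ, BARD1) sit between 47.2 and 84.0 kb and the members beyond 300 kb, RAD51B and FANCC, did not pass. With mitochondrial scaling all blue members except ATM turned negative.

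Some of these genes start back to back with another gene, and the share of all genes that do so was not counted. Taking the start of the canonical transcript, 23 members had a gene on the opposite strand starting within 1000 bases in head-to-head orientation, in 24 pairs, and the neighbour was tested in 14. Both genes passed in 10 pairs. In 7 of these they moved in opposite directions with TMM scaling, and in 3 both fell; among all 916 head-to-head pairs of tested genes in which both passed, 456 (49.8%) moved in opposite directions. ATM and NPAT, a coactivator of histone genes, start 429 bases apart. NPAT fell from 36.2, 34.7 and 36.5 CPM to 18.6, 19.3 and 18.9 CPM (log2 fold change -0.92, SE 0.0549, adjusted p 4.53e-09) while ATM nearly doubled. The ATM to NPAT count ratio was 1.02, 1.09 and 1.03 with DMSO and 3.80, 3.80 and 4.10 with AZD4573, a 3.73-fold change that does not depend on the scaling.

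BRCA1 and NBR2, a long noncoding RNA that starts 187 bases away, also parted. NBR2 rose from 8.11, 8.64 and 8.09 CPM to 21.4, 22.3 and 20.6 CPM (log2 fold change 1.37, SE 0.0692, adjusted p 9.85e-10), against -0.11 for BRCA1. EME1 and MRPL27, a mitochondrial ribosomal protein gene, start 45 bases apart, and MRPL27 fell from 31.0 ± 1.10 to 10.4 ± 0.796 CPM (SD, n = 3 each, log2 fold change -1.58), where EME1 was at 0.36 (-0.38 with mitochondrial scaling). In the other opposite pairs the neighbour changed little. GEN1 and SMC6 were at -0.64 and 0.10, and RMI1 and HNRNPK at -0.56 and 0.17. MRE11 and ANKRD49 were at 0.27 and -0.17, and PALB2 and DCTN5 at 0.19 and -0.19. Mitochondrial scaling put SMC6, HNRNPK, MRE11 and PALB2 below 0 as well. SMC6 lost its call without DMSO replicate 1, 2 or 3 or AZD4573 replicate 2 or 3 (0.08 to 0.09), and ANKRD49 without DMSO replicate 2 or 3 or any one AZD4573 replicate (-0.20 to -0.13), and with RLE factors or DESeq2 (-0.17 in both) or 10 counts required in every library (-0.14). SMC6 also lost its call without the filter (0.06) and HNRNPK with library sizes alone (0.07).

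Both genes fell in the pairs RAD51AP1 and C12orf4 (-0.18 and -1.58), FANCB and MOSPD2 (-0.74 and -0.70) and HELQ and MRPS18C (-1.52 and -0.53). In the pairs where only the neighbour passed, HSCB beside CHEK2 was at -0.72 and ZFYVE21 beside XRCC3 at -0.52. Where only the member passed, SNHG31 beside BARD1 was at -0.09 (adjusted p 0.302), though it passed with library sizes alone (-0.19, adjusted p 0.0395) and with mitochondrial scaling (-0.83), and TEX14 beside RAD51C at -0.40 (adjusted p 0.618), the latter from 0.210 CPM.

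**Figure D5:**
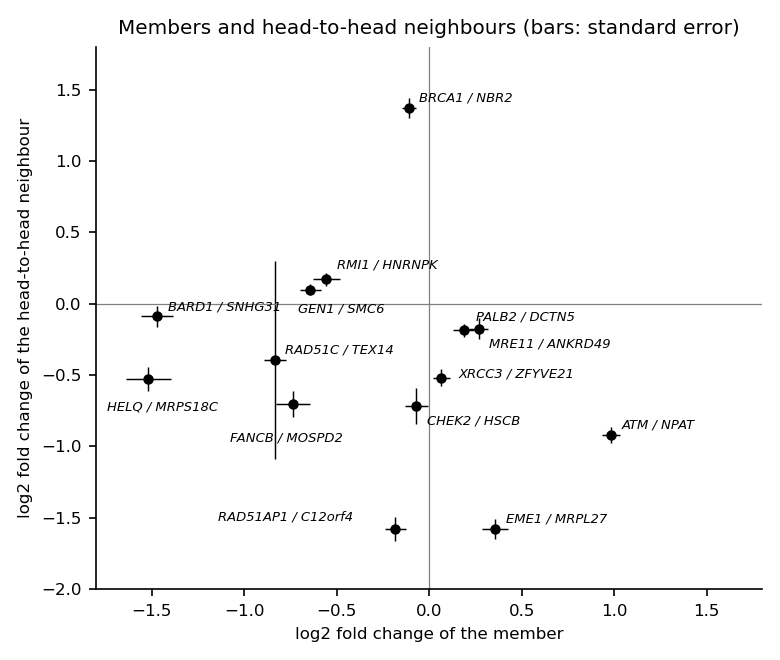
Log2 fold change of 14 members (horizontal axis) and of the gene that starts head to head with each (vertical axis), with standard errors as bars. ATM with NPAT lies far in the lower right and BRCA1 with NBR2 at the top; the values are relative to TMM scaling, and with mitochondrial scaling EME1, MRE11, PALB2, XRCC3, SMC6 and HNRNPK turned negative.

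Other repair genes gave the background for these members. Over 144 tested genes of the other repair and checkpoint lists, 88 passed as lower and 35 as higher. Over all genes tested 37.4% passed as lower and 37.3% as higher, and over the members 63.8% and 21.3%. The median log2 fold change of the 144 genes was -0.27, close to the -0.32 of the members. Further recombination and Fanconi factors (42 genes, 24 lower, 13 higher, median -0.21) ran from SWSAP1, a binding partner of a recombinase mediator (-2.64), to SPIDR, a scaffold of the pathway (1.22). End joining and break signalling (24 tested of 25, 14 lower, 8 higher, median -0.46) ran from NHEJ1 (-1.46) to APLF (0.85). Of 6 mismatch repair genes 5 were lower (median -0.66), with MSH6, which recognizes mismatched bases, the lowest (-1.25). SPIDR and APLF stayed above 0 with mitochondrial scaling, APLF without passing the test.

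The other lists also held more genes that were lower than higher, where all genes tested were split evenly (37.4% and 37.3%). Nucleotide excision repair (22 genes, 11 lower, 7 higher, median -0.15) ran from CDK7 (-1.79), the kinase of TFIIH, to UVSSA (0.84, and 0.10 with mitochondrial scaling, adjusted p 0.191). Base excision and single-strand break repair (20 genes, 14 lower, 3 higher, median -0.29) ran from APEX2 (-1.73) to NEIL1 (1.22), and translesion synthesis (16 genes, 10 lower, 3 higher, median -0.20) from POLH (-1.06) to POLI (0.66, and -0.07 with mitochondrial scaling). The checkpoint clamp and its mediators (14 genes, 10 lower, 1 higher, median -0.55) ran from CLSPN (-1.66), which presents CHEK1 to ATR, to TIMELESS (0.10, and -0.64 with mitochondrial scaling), which did not pass in any fit with a library left out. CDK12, the elongation kinase known for its effect on recombination genes, fell from 180.2, 180.2 and 179.9 CPM to 78.9, 74.4 and 69.1 CPM (log2 fold change -1.28, SE 0.05, adjusted p 1.27e-10). Its relative CDK13 fell by 0.84 and their cyclin CCNK fell by 0.39. Whether these kinases had a part in the members' changes was not tested.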

How the data were processed

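RNA-seq of H9 cells covered 3 DMSO and 3 AZD4573 libraries, each assigned to its group by its label. The authors trimmed reads with cutadapt 2.3, aligned them to GRCh38 with STAR 2.7.8a and deposited expected counts per gene from RSEM 1.3.3, whose default settings ignore strand. The values are whole numbers without normalization; 5 rows name no gene, hold 0 counts and were left out. The labels name poly(A) selection, whereas rRNA depletion is given in the methods.

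Genes passing edgeR's filter (minimum count 10) were normalized by TMM and compared with the quasi-likelihood test (edgeR 4.0.16, R 4.3.3) with Benjamini-Hochberg adjustment, with no replicate block. A gene was called at an adjusted p under 0.05 with a fold change of at least 1.5. Errors of CPM are SD over libraries, and they and the counting limits do not cover PCR copies, which cannot be told apart. The members and lists were chosen with earlier results of these data known. Values per library were given for the lowest and highest member that passed in each role, and for BRCA1, BRCA2, PALB2, RAD51C, FANCA, FANCD2, ATM, ATR, CHEK1 and POLQ; NBN, RAD50, EME1, WRN, ATRIP and the counts of POLN were added after their values were seen. Further members are named with summary values. Outside the members, the gene with the largest fall and with the largest rise that passed in each repair list, CDK12, CDK13, CCNK and head-to-head neighbours were named by rule, and genes sharing exons with members were added after their values were seen. Some genes that met these rules are not reported here and were left out of the lists. Promoters were printed for the 3 lowest and the highest called members. Spans, exons and canonical transcripts came from GENCODE release 44 and promoter windows from RefSeq.

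Alternatives were RLE factors, library sizes alone, scaling to 13 mitochondrial mRNAs, other filters, other thresholds, members without shared exons, a replicate block, DESeq2 1.42.0 and each library left out in turn. On simulated data edgeR recovered 169 of 200 changed genes (140 of 141 with over 100 counts) and DESeq2 168. False calls among the 17478 unchanged genes were 9 and 13. Far more genes passed in the real data (6606 lower and 6596 higher), so that the simulation cannot test the scaling. Pairs of libraries within a group differed beyond counting noise (chi-square over its degrees of freedom, 5.59 to 21.2).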

Additional observations from a re-analysis of the deposited data

How the results depend on the processing

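The members called lower (18) numbered 36 with mitochondrial scaling (76.6%, beside 53.4% of all genes) and 30 by adjusted p alone (63.8%, beside 37.4%). They numbered 7 at a fold of at least 2 and 6 among the 13 members without shared exon bases. No all-gene share was counted for those 7 and 6. The number called higher (1) became 0 with mitochondrial scaling (beside 10% of all genes) and 10 by adjusted p alone (21.3%, beside 37.3%). It became 0 at a fold of at least 2. Among the members without shared exon bases it was 0 by rule, since ATM shares 0.577% of its exon bases and is outside that set. That 0 therefore does not bear on the rise of ATM. The members' median (-0.32) was -0.43 with library sizes alone, -1.06 with mitochondrial scaling, -0.56 without shared exons and -0.38 to -0.29 with a library left out, lowest without DMSO replicate 1. Relative to all genes it was -0.35 under TMM and -0.34 under mitochondrial scaling. The difference between the longest and shortest members (0.44) was 0.62 without shared exons and 0.39 to 0.46 with a library left out, lowest without AZD4573 replicate 3.

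Mitochondrial scaling reversed the medians of the FANCD2-FANCI pair (-0.47) and of HELQ, POLQ and POLN (-0.35), and reversed MRE11 (-0.47), PALB2 (-0.55), RAD51B (-0.48), XRCC3 (-0.67), RMI2 (-0.35), EME1 (-0.38), FANCC (-0.71), FANCF (-0.47), FANCD2 (-0.33), FANCI (-0.61), ATR (-0.44), POLQ (-0.35), POLN (-0.10), POLI (-0.0744), TIMELESS (-0.64), SMC6 (-0.64) and HNRNPK (-0.57). Library sizes alone reversed XRCC3 (-0.0378), FANCC (-0.0773), TIMELESS (-0.00234) and SMC6 (-0.00613). Without the filter FANCC was at -0.0154, and with 10 counts in every library XRCC2 was at 0.0214. With a library left out, XRCC2 ranged from -0.0794 to 0.0175, FANCC from -0.0136 to 0.0493 and TEX14 from -1.29 to 0.18. The cause was not tested.

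Libraries with the same number did not deviate together (correlations -0.02, 0.04 and 0.03), so that the numbers were not taken as pairs. A replicate block gave 18 members called lower, 1 called higher and a median of -0.31; of the genes named, TIMELESS (0.10, adjusted p 0.0612) and SMC6 (0.10, adjusted p 0.0624) lost their calls under the block. Of the 47 members, 29 kept direction and side of the threshold under every alternative and 38 under all but mitochondrial scaling. For POLN, with 10 to 23 counts a library, depth limits what can be seen.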
